A study of Homo sapiens with 16 samples.

Results

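The genes described here build ribosomes. They are 42 genes of the nucleolus, of pre-ribosomal RNA processing and of RNA polymerases I and III. They were listed by symbol and not by a cut on their values, but with earlier results of these data known. All 42 were among the 26229 genes listed in the count table, and all 42 were among the 14673 genes that had a mean above 10 counts per library and were tested. Their RNA levels were measured in 2 human epidermal lines, A431 (epidermoid carcinoma) and HaCaT (immortalised keratinocytes), both grown in DMEM with 10% FCS. Each line gave 1 library with control siRNA (siCTRL) and no vector, 3 with siRNA against YAP1 (siYAP) and no vector, 1 with empty vector and no siRNA, and 3 with YAP5SA and no siRNA. YAP5SA is a mutant of the transcription co-activator YAP that lacks the sites through which the Hippo pathway restrains it. The siRNAs were transfected in 2 rounds 24 h apart, and RNA was analysed 48 h after the later round, whereas the time after introduction of the vectors is not given in the sources used here.

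Every comparison with a control rested on 1 control library, so the spread between control cultures could not be measured. The p-values came from the spread among the treated libraries, which the Methods call biological triplicates. The table holds 1 count for YAP1 and does not separate the endogenous gene from the construct. In bulk RNA a smaller number of cells of one kind and less RNA per cell cannot be told apart. Library depth was 18115624 to 46791673 read pairs assigned to genes. YAP1 itself was 94.2 counts per M assigned pairs (CPM) with siCTRL and 5.04 to 6.99 with siYAP in A431, and 254 against 21.6 to 23.2 in HaCaT. With YAP5SA it was 1494, 3244 and 2938 CPM in A431 replicates 1 to 3 against 124 in the empty vector, and 7546, 22243 and 10064 CPM in HaCaT against 423. In A431 the YAP1 difference did not pass the test used below (log2 fold change 4.36 ± 0.65, FDR 0.197). The keratinocyte genes KRT5, KRT14, TP63, DSG3 and CDH1 were present in all 16 libraries, and EGFR, which is amplified in A431, was 1.24 higher in A431 on the log2 scale. COL1A2 and CD3E had 3 counts or fewer in all 16 libraries. The summed fibroblast markers were 13.2 to 20.95 CPM in the HaCaT siRNA libraries and 0.553 to 1.80 in the HaCaT vector libraries. The summed leukocyte and endothelial markers, most of them CDH5, lay within 12.6 to 52.6 CPM in the HaCaT siRNA libraries and 0.349 to 1.19 in the vector libraries, and within 17.7 to 32.5 and 1.88 to 3.62 CPM in the same libraries of A431. Their part in the results was not tested.

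Ribosomes are assembled in the nucleolus. RNA polymerase I transcribes the long precursor of the 18S, 5.8S and 28S ribosomal RNAs, and RNA polymerase III transcribes the 5S RNA. Box C/D and box H/ACA ribonucleoproteins modify the precursor, and large sets of assembly factors, helicases and chaperones fold it, cut it and load it with ribosomal proteins to give the small and large subunits. Many of these genes are known targets of MYC, which binds the E-box CACGTG, while YAP reaches DNA mainly through TEAD factors, which bind sites holding CATTCC.

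The start sites of the 42 genes were searched for both motifs on both strands, in windows of 250 bases before and 50 bases after the annotated start (RefSeq sequence, GRCh38.p14). The E-box reads the same on both strands, and the motifs can overlap by no more than 1 base. A window was found for 34 of the 42 genes. Of these, 16 (47.1%) held CACGTG, compared with 12.2% of 10542 tested genes, 8.77% of all 27305 genes with a window and 30.6% of 124 other ribosome biogenesis genes. CATTCC was present in 7 of the 34 (20.6%), compared with 15.2% of the tested genes. The following windows of 30 bases are shown because they hold an E-box and belong to genes called lower with siYAP averaged over both lines. Of the other genes called there, DKC1, NIP7, NOP56, POLR1B, POLR1C and PPRC1 had no CACGTG in their window, and NOP58 and POLR3G had no window. The capitals mark the E-box, and each printed window is written on the strand of its gene.
WDR43: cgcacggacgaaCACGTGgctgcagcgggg
GNL3: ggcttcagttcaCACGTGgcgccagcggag
MRTO4: cgtcttccgccgCACGTGgattcagcgcga
NOP14: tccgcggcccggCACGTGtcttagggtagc
GAR1: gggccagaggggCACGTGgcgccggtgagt
DDX21: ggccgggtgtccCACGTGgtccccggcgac

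The WDR43 window is chr2:28894658-28894687 on the plus strand, that of GNL3 is chr3:52686026-52686055 (plus) and that of MRTO4 is chr1:19251807-19251836 (plus). NOP14 lies at chr4:2963374-2963403 (minus), GAR1 at chr4:109815781-109815810 (plus) and DDX21 at chr10:68956604-68956633 (plus). Counting the start site as base 1, the E-box began at base 4 in WDR43, 7 in GNL3, 15 in MRTO4, 16 in NOP14 and 32 in GAR1, and 31 bases before the start site in DDX21. A match describes these letters and is not a measured binding site. The 16 genes with an E-box and the 18 without one had median log2 fold changes of -0.43 and -0.44 with siYAP over both lines and of -0.59 and -0.54 in HaCaT. With YAP5SA the medians were 0.30 and 0.25 over both lines and 0.29 and 0.14 in HaCaT. These differences were not tested.

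**Figure D1:**
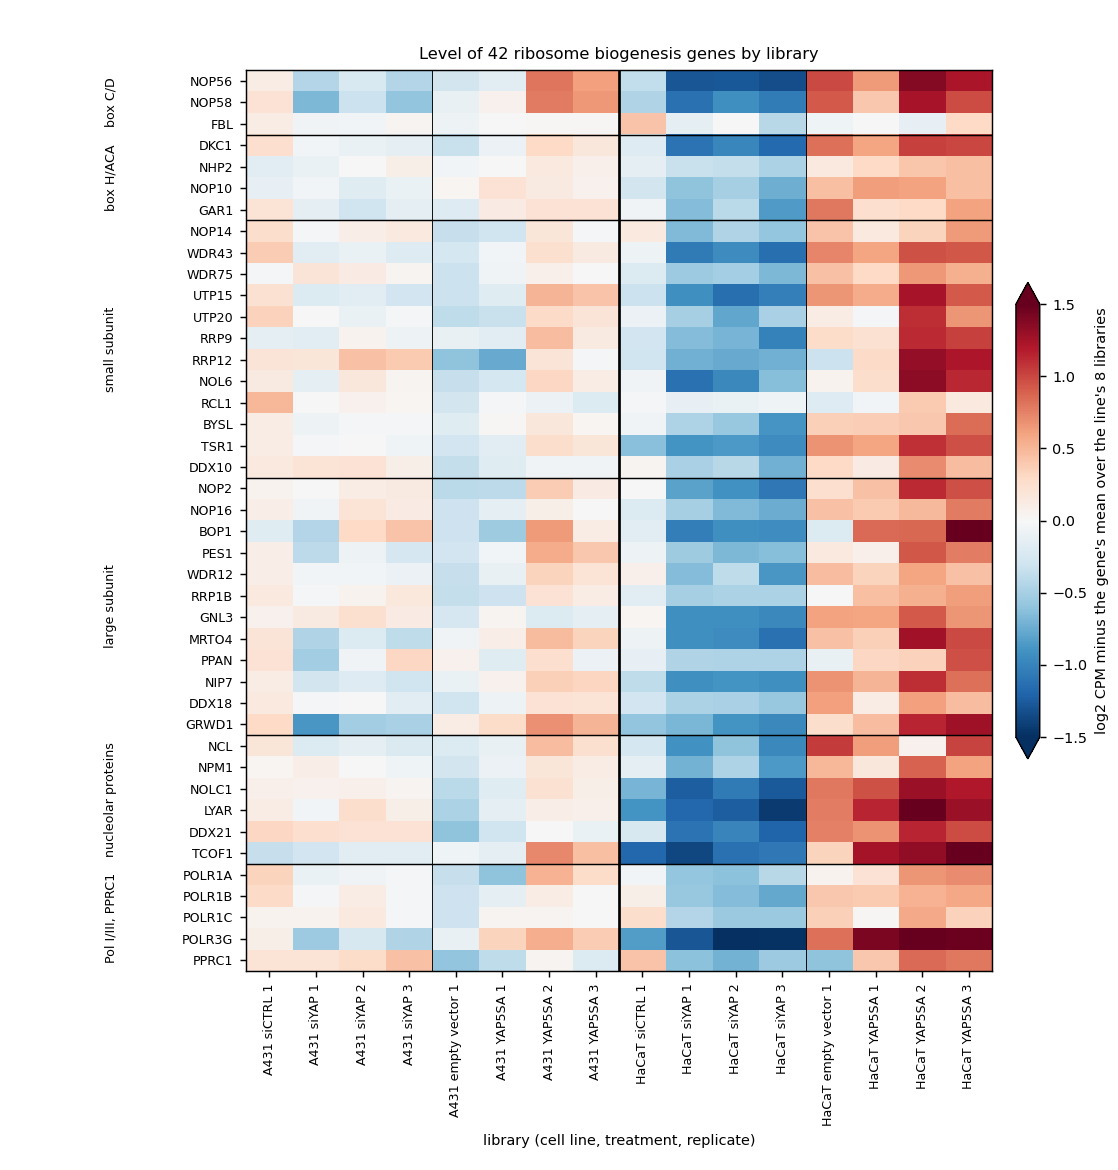
Heat map of the 42 genes (vertical axis, in groups by role) in the 16 libraries (horizontal axis), coloured by log2 CPM minus the mean of the gene over the 8 libraries of its line. In HaCaT the siYAP libraries are the lowest and the vector libraries the highest for most genes, while the A431 libraries differ less.

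The genes varied together in both lines and over a wider range in HaCaT. Within a line, the Pearson correlation of a gene with the mean of the other 41 over its 8 libraries had a median of 0.968 in HaCaT and 0.69 in A431. It was above 0.5 for 41 genes in HaCaT and 31 in A431. FBL, the methyltransferase of the box C/D particle, had the lowest value in HaCaT (0.367), and GNL3, a nucleolar GTP-binding protein, the lowest in A431 (-0.17). The median range of a gene over the 8 libraries was 1.89 on the log2 scale in HaCaT and 0.658 in A431. These correlations are a description, since the libraries share treatment, depth and control. In CPM per kilobase of transcript NPM1, a histone and ribosome chaperone, was the most abundant of the 42 in both lines (821 in A431 and 738 in HaCaT). NCL, NOP10 and DDX21 followed in that order in both lines, and POLR1A and GRWD1 were the lowest pair in both. The order depends on the 1 transcript length taken per gene, which was 12749 bases for POLR1A and 5571 for GRWD1.

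Knockdown of YAP1 was compared with siCTRL to ask which of these genes depend on YAP. In HaCaT 9 of the 42 fell, where 3.3% of all genes tested were called lower (false discovery rate, FDR, under 0.05 and logCPM above 1 in edgeR's quasi-likelihood test). None rose, with an unadjusted p under 0.05 for 25 genes, all of them lower, as had 10.7% of all genes tested, and 41 of the 42 had a fold change below 0 on the log2 scale. The median log2 fold change was -0.56, beside 0.03 for all genes tested. In 41 of the 42 genes all 3 siYAP libraries were below the siCTRL library, which was true of 33.4% of all genes. TCOF1, the scaffold of ribosomal RNA transcription mutated in Treacher Collins syndrome, was the exception, with 24.0, 28.5 and 29.5 CPM against 27.2.

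The largest fall in HaCaT was in PPRC1, a co-activator of the PGC-1 family that responds to growth signals. From 32.9 CPM in the control it went to 15.98, 14.9 and 16.7 CPM after knockdown. All 3 libraries lay below the control, with a log2 fold change of -1.05 ± 0.19 (SE, FDR 0.00714). GNL3 was 85.9 CPM in the control and 44.4, 44.5 and 42.9 CPM after knockdown, a log2 fold change of -0.97 ± 0.14 (FDR 0.0016). WDR43, a component of the small subunit processome, was 113.9 CPM against 57.9, 62.5 and 55.1 CPM, a log2 fold change of -0.96 ± 0.15 (FDR 0.00259). In each of these genes the siYAP replicates differed from one another by far less than from the control. The others that fell in HaCaT were MRTO4, a placeholder for the ribosomal stalk (-0.92, FDR 0.0495), DKC1, the pseudouridine synthase of the box H/ACA particle (-0.89, FDR 0.0101), and the helicase DDX21 (-0.85, FDR 0.0101). The polymerase subunits POLR1C, shared by polymerases I and III (-0.79, FDR 0.0156), and POLR1B, of polymerase I (-0.74, FDR 0.00639), fell with them, as did WDR12 of the large subunit PeBoW complex (-0.71, FDR 0.0472). With siCTRL and empty vector as 2 controls of 1 group, 30 genes were called lower, where 15.03% of all genes were, and PPRC1 was not (-0.62, FDR 0.12). The median of the 42 was then -0.87. DESeq2 called 13, where it called 4.95% of all genes lower.

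In A431 none of the 42 passed, where 3.78% of all genes tested were called lower. The median log2 fold change was -0.15, beside 0.03 for all genes, with 30 genes below 0 and 12 above. An unadjusted p under 0.05 was reached by 5 genes, all of them lower, a share of 11.9% beside 12.04% of all genes tested. DESeq2 called 2 lower, where it called 5.75% of all genes. In 24 of the 42 all 3 siYAP libraries were below siCTRL, compared with 34.9% of all genes. The nearest to a call were GRWD1, a histone chaperone of the nucleolus (-0.93 ± 0.27, FDR 0.0609), and WDR43 (-0.53 ± 0.15, FDR 0.0614). WDR43 was 212 CPM in the control and 146, 153 and 143 CPM after knockdown, so that the groups did not overlap. GNL3 was 187 CPM against 198, 213 and 195, and PPRC1 was 52.7 CPM against 52.4, 55.4 and 62.0. The difference in siYAP effect between the lines was itself tested, and none of the 42 passed, where 0.17% of all genes did. The difference had an unadjusted p under 0.05 in 8 genes, all of them higher in A431, where 5.37% of all genes were, and DESeq2 called 2, where it called 0.763% of all genes higher. GNL3 was closest, with an effect 1.07 ± 0.21 (SE) higher in A431 on the log2 scale (FDR 0.0639). It was the 1 gene called when siCTRL and empty vector were taken as 2 controls, where the median of the difference was 0.95 beside 0.43 with siCTRL alone.

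**Figure D2:**
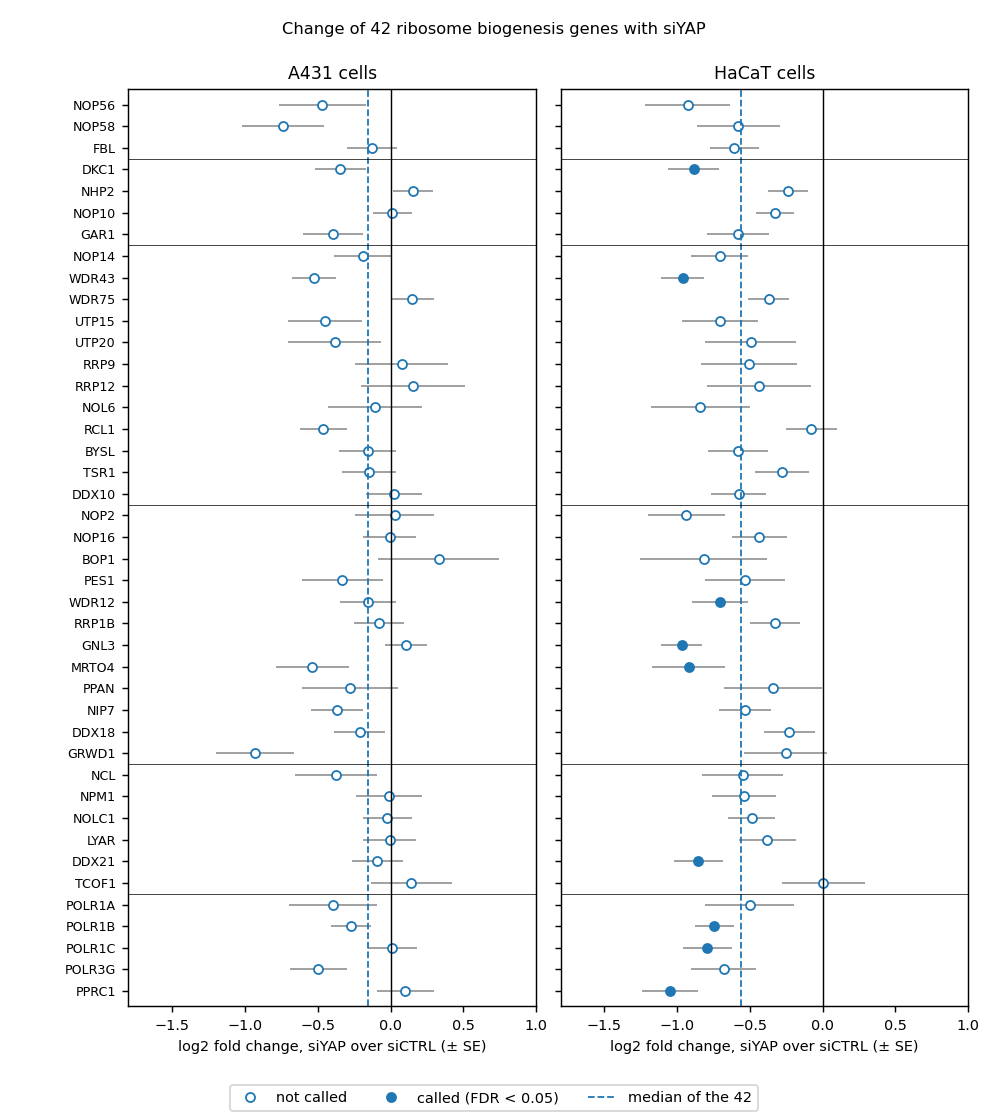
Log2 fold change of siYAP over siCTRL (horizontal axis) for each of the 42 genes (vertical axis, in groups by role), with bars of 1 SE from the edgeR model. Filled points passed the test, and the dashed line is the median of the 42. All 9 filled points are in HaCaT, where 41 of 42 points lie below 0.

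Averaged over both lines, 14 of the 42 fell with siYAP and none rose, where 7.68% of all genes were called lower. The median log2 fold change was -0.43, beside 0.04 for all genes tested. Of the 9 genes that fell in HaCaT alone, 8 were among these 14, and WDR12 was not (FDR 0.0519). Leaving out 1 siYAP library lowered the count to between 7 and 10. It was 7 when A431 replicate 1 or HaCaT replicate 1 or 3 was missing, and 8 when A431 replicate 2 or 3 was, while the share of all genes called lower was 5.17% to 6.82%. DDX21, DKC1, GNL3, MRTO4, POLR1B, POLR3G and WDR43 passed whichever of the 6 siYAP libraries was left out, and the other 7 failed in 5 or 6 of these fits. With siCTRL and empty vector as 2 controls 16 genes were called lower, where 13.9% of all genes were, and DDX21, NOP14, POLR1C and PPRC1 of the 14 were not among them.

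By role, the box C/D particle gave 2 of its 3 genes, the core proteins NOP56 and NOP58. In A431 NOP56 went from 155 CPM in the control to 106, 123 and 107 CPM, and from 127 CPM to 67.2, 67.9 and 65.2 CPM in HaCaT. All 6 siYAP libraries lay below their control. The log2 fold change was -0.70 ± 0.21 (FDR 0.0439), and it did not pass when any 1 of the 6 siYAP libraries was left out (FDR 0.0568 to 0.0834). NOP58 had -0.66 (FDR 0.0456), and FBL did not pass (-0.37, FDR 0.0578). The box H/ACA particle, whose proteins also bind telomerase RNA, gave DKC1 (-0.62, FDR 0.00622) and GAR1 (-0.49, FDR 0.0465) of 4, while NHP2 (-0.04) and NOP10 (-0.16) did not pass.

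Among the 12 small subunit factors 2 fell. WDR43 fell by 0.74 on the log2 scale over both lines (SE 0.11, FDR 0.000847), the largest fall of the 42. NOP14, a scaffold of the same processome, had -0.45 (FDR 0.0498). UTP15, UTP20, WDR75, RRP9, RRP12, NOL6, RCL1, BYSL, TSR1 and DDX10 did not pass, with log2 fold changes between -0.58 and -0.11. Among the 12 large subunit factors 3 fell. In A431 MRTO4 went from 86.0 CPM in the control to 55.0, 65.1 and 57.7 CPM. In HaCaT it was 50.2 CPM against 27.9, 27.5 and 24.3 CPM. All 6 siYAP libraries were below their control (-0.73 ± 0.18, FDR 0.0175). NIP7 (-0.45, FDR 0.0361) and GNL3 (-0.43, FDR 0.0139) were the others. GNL3 passed over both lines through HaCaT, since in A431 its 3 siYAP libraries lay above the control. NOP2, NOP16, BOP1, PES1, WDR12, RRP1B, PPAN, DDX18 and GRWD1 did not pass, at -0.59 to -0.20.

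Of the 6 multifunctional nucleolar proteins only DDX21 passed (-0.47, FDR 0.0218). NCL (-0.46), NPM1 (-0.27), NOLC1 (-0.25), LYAR (-0.19) and TCOF1 (0.07) did not. The polymerase group gave 4 of 5 genes. POLR3G, a polymerase III subunit typical of proliferating and undifferentiated cells, went from 28.3 CPM in the A431 control to 18.3, 22.6 and 19.5 CPM. In HaCaT it was 6.01 CPM against 4.37, 3.01 and 3.80 CPM, again with no overlap (-0.59 ± 0.15, FDR 0.0212). POLR1B (-0.51, FDR 0.00457), PPRC1 (-0.47, FDR 0.0391) and POLR1C (-0.39, FDR 0.0476) also fell. PPRC1 and POLR1C passed through HaCaT, since in A431 their log2 fold changes were 0.10 and 0.01. PPRC1 passed without A431 replicate 3 but not when any other siYAP library was left out (FDR up to 0.0675), and it was -0.09 when both controls were joined (FDR 0.783). POLR1C did not pass when any 1 siYAP library was left out (FDR 0.0596 to 0.0931). POLR1A, the largest subunit of polymerase I, did not pass over both lines (-0.45, FDR 0.193).

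YAP5SA was compared with empty vector to ask the converse. In A431 none of the 42 was called higher, and the share of all genes called higher was 0%. Even so, 41 of the 42 had a fold change above 0, with a median of 0.39 on the log2 scale beside 0.02 for all genes tested. An unadjusted p under 0.05 was reached by 12 genes, all higher, where 3.54% of all genes were, and DESeq2 called 0. With siCTRL and empty vector as 2 controls the median fell to 0.17 and 0 genes had an unadjusted p under 0.05. In 36 of the 42 all 3 YAP5SA libraries were above the empty vector, compared with 28.9% of all genes. The highest fold change was that of NOP56, which was 120 CPM with empty vector and 129, 252 and 221 CPM with YAP5SA (0.75 ± 0.32, FDR 0.803). PPAN, a factor of 60S assembly, was the gene below 0, at -0.06.

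In HaCaT 4 genes rose, where 6.99% of all genes tested were called higher. The median log2 fold change was 0.22 beside 0.01 for all genes, with 35 genes above 0. With siCTRL and empty vector as 2 controls the median was 0.56 and 8 genes were called higher, where 4.77% of all genes were. In 17 of the 42 all 3 YAP5SA libraries were above the empty vector, compared with 32.1% of all genes. RRP12, an export factor of both subunits, was 27.6 CPM with empty vector and 42.2, 86.4 and 79.9 CPM with YAP5SA (1.33 ± 0.38, FDR 0.0365). PPRC1 was 16.1 CPM against 32.6, 44.2 and 42.4 CPM (1.30 ± 0.21, FDR 0.00516). The HaCaT siCTRL library held 32.9 CPM of PPRC1, and PPRC1 was not among the 8 genes called with 2 controls. TCOF1 was 78.0 CPM against 148, 156 and 219 CPM (1.16 ± 0.29, FDR 0.0228). POLR3G was 19.3 CPM against 29.04, 35.0 and 30.2 CPM (0.70 ± 0.21, FDR 0.0396). In all 4 genes every YAP5SA library exceeded the control, and replicate 1 was the lowest of the 3. NCL, the abundant nucleolin, was 1726 CPM with empty vector and 1282, 870 and 1675 CPM with YAP5SA, and did not pass (-0.44, FDR 0.303).

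By the median of the 42 genes, replicate 1 of YAP5SA was the lowest in both lines. The median log2 ratio of the 42 genes to the empty vector was 0.17, 0.566 and 0.424 in A431 replicates 1 to 3 and -0.046, 0.413 and 0.323 in HaCaT. By a chi-square of counts over the genes tested, the closest pair was replicates 2 and 3 in A431 but 1 and 3 in HaCaT. YAP1 was also lowest in replicate 1 of each line, and the part of construct level in these genes was not tested. Without HaCaT replicate 1, 15 genes were called higher in HaCaT, where 9.08% of all genes were. Without replicate 2 or replicate 3 the count was 2, where 8.56% and 4.25% of all genes were called higher. In a fit added after the data were seen, the replicate numbers were taken to pair the A431 and HaCaT YAP5SA libraries. The labels state no pairing, and it was inferred from these same counts. With the number as a block across these 6 libraries, 13 of the 42 were called higher in HaCaT, where 9.89% of all genes were, and none in A431, where 24 had an unadjusted p under 0.05, all of them higher, as had 6.71% of all genes. DESeq2 called 8 higher in HaCaT, where it called 10.1% of all genes.

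**Figure D3:**
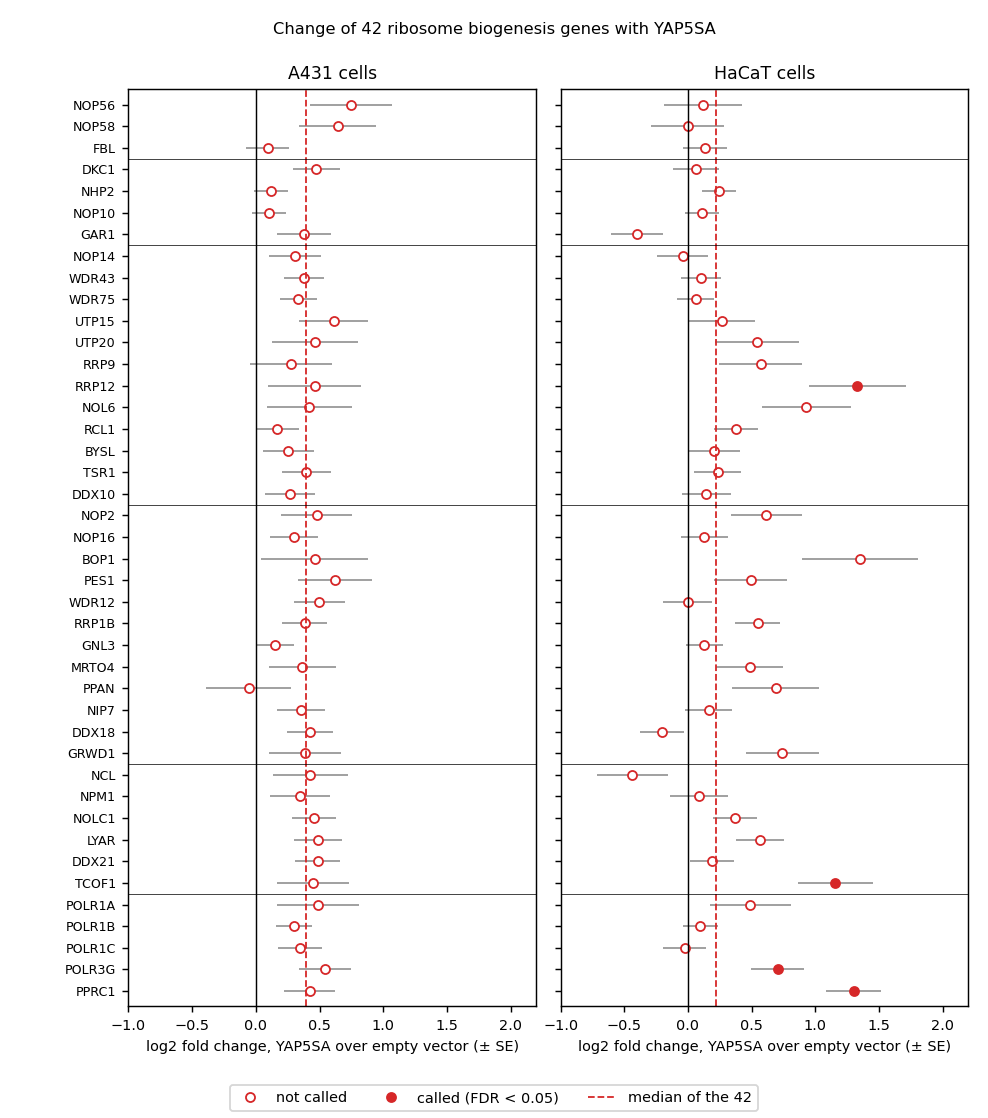
Log2 fold change of YAP5SA over empty vector (horizontal axis) for each of the 42 genes (vertical axis, in groups by role), with bars of 1 SE from the edgeR model. Filled points passed the test, and the dashed line is the median. In A431 41 points lie above 0 and none is filled, and in HaCaT 4 are filled.

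Over both lines 2 genes rose with YAP5SA, where 1.38% of all genes were called higher. PPRC1 was 30.2 CPM with empty vector and 35.0, 47.1 and 39.5 CPM with YAP5SA in A431, above the control in all 3 as in HaCaT (0.86 ± 0.15, FDR 0.0173). POLR3G was 24.6 CPM against 33.7, 39.0 and 34.7 CPM in A431 (0.62 ± 0.15, FDR 0.0487). It did not pass without A431 replicate 2, A431 replicate 3 or HaCaT replicate 3 (FDR 0.0749 to 0.0968). PPRC1 did not pass with siCTRL and empty vector as 2 controls (0.33, FDR 0.286). These 2 were also called lower with siYAP over both lines. Fold changes were above 0 in 40 of the 42, with a median of 0.32 beside 0.03 for all genes, and 18 had an unadjusted p under 0.05, all of them higher, as had 12.7% of all genes. With the replicate block 18 genes were called higher, where 5.06% of all genes were. Of these, 5 (DDX21, MRTO4, NOP56, POLR3G and PPRC1) were also called lower with siYAP over both lines. DESeq2 called 8 higher, where it called 4.76% of all genes. The count was 10 when A431 replicate 1 was left out and 15 when HaCaT replicate 1 was, where 4.85% and 4.89% of all genes were called. It was 1 when A431 replicate 2 or 3 or HaCaT replicate 3 was left out, where 0.225% to 0.709% of all genes were.

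The YAP5SA effect did not differ between the lines at the threshold for any of the 42, where 0.0886% of all genes did, and 3 had an unadjusted p under 0.05, as had 22.4% of all genes. DESeq2 called none of the 42 here. With the replicate block PPRC1 and RRP12 were called lower in A431 than in HaCaT, and DDX18, a helicase of 60S assembly, higher. With that block 2.66% of all genes were called lower and 2.63% higher. Without HaCaT replicate 1, PPRC1 was called lower, where 1.98% of all genes were.

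**Figure D4:**
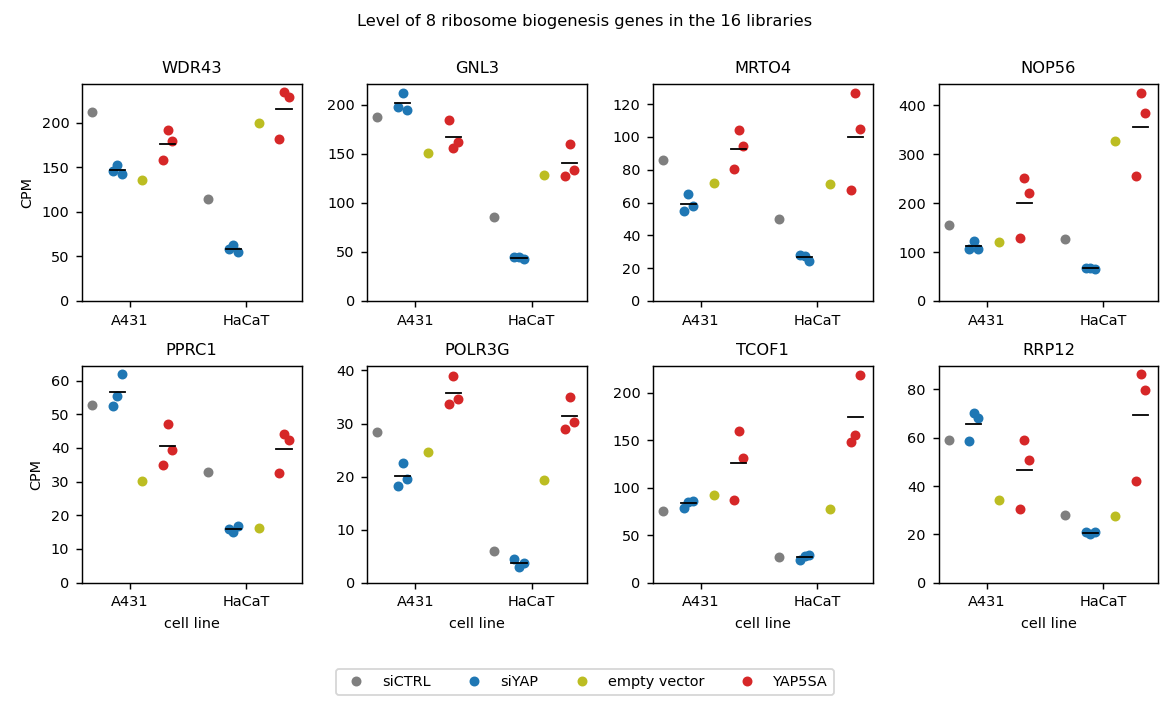
CPM (vertical axis) of 8 genes in the 16 libraries, by cell line (horizontal axis) and treatment (colour), with 1 point per library and a line at the mean of each triplicate. In HaCaT the siYAP points lie below siCTRL in all panels but TCOF1. There the empty vector point lies far above siCTRL for NOP56, POLR3G and TCOF1 and far below it for PPRC1.

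The 2 controls of a line did not have the same level of these genes. The empty vector library over the siCTRL library had a median log2 ratio of 0.569 in HaCaT, with 37 of the 42 higher, and -0.398 in A431, with 38 lower. The same ratio over all genes with logCPM above 1 was 0.0348 in HaCaT and 0 in A431. In HaCaT LYAR, a nucleolar zinc finger protein, was 12.1 CPM with siCTRL and 38.8 with empty vector, and PPRC1 was 32.9 and 16.1. With 1 library each this has no replicate check, and siRNA transfection and vector cannot be told apart from other differences between the cultures.

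Comparing the YAP5SA with the siYAP triplicates sets vector libraries against siRNA libraries, and the part of the difference between the controls in its results was not tested. In HaCaT 40 of the 42 were higher with YAP5SA than with siYAP, where 31.5% of all genes were called higher, and none was lower. FBL (0.25, FDR 0.0821) and RCL1 (0.28, FDR 0.0548) did not pass. The median was 1.38 on the log2 scale, beside -0.06 for all genes, and in 41 of the 42 every YAP5SA library exceeded every siYAP library, compared with 34.3% of all genes. POLR3G had the largest difference, at 3.07 ± 0.16. It was followed by TCOF1 (2.67), LYAR (2.63), NOP56 (2.41), the snoRNP chaperone NOLC1 (2.34) and BOP1, a PeBoW subunit (2.12). With each arm first set against its own control, 15 genes were called higher, where 4.65% of all genes were, and the median was 0.909. These 15 were BOP1, DDX21, DKC1, GNL3, LYAR, MRTO4, NOL6, NOLC1, NOP2, POLR1B, POLR3G, PPRC1, RRP12, RRP1B and WDR43.

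In A431, 9 genes were higher with YAP5SA than with siYAP, where 20% of all genes were called higher, and 2 were lower, where 14.6% were. The 9 were NOP56, NOP58, UTP15, PES1, MRTO4, NIP7, GRWD1, TCOF1 and POLR3G, led by GRWD1 (1.13 ± 0.20, FDR 0.000837) and NOP58 (1.05 ± 0.21, FDR 0.0017). PPRC1 (-0.48, FDR 0.016) and DDX21 (-0.35, FDR 0.0403) were the lower pair. In 13 of the 42 every YAP5SA library exceeded every siYAP library, compared with 26.9% of all genes. Over the treated libraries alone, the replicate block added RRP12 (-0.53, FDR 0.0383) to the lower genes and NOP10 (0.25, FDR 0.0448) to the higher ones. This block also paired siYAP with YAP5SA libraries by number, which the labels do not state. In A431 such pairs hardly deviated together from their group means (r 0.003, -0.003 and 0.015 for replicates 1 to 3). With each arm set against its own control none of the 42 passed, 16 had an unadjusted p under 0.05, all of them higher, as had 12.5% of all genes, and the median was 0.512. The difference between the lines, tested after these results had been seen, called 38 of the 42 lower in A431 than in HaCaT, where 21.3% of all genes were. The part of the difference between the controls in this value was not tested.

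**Figure D5:**
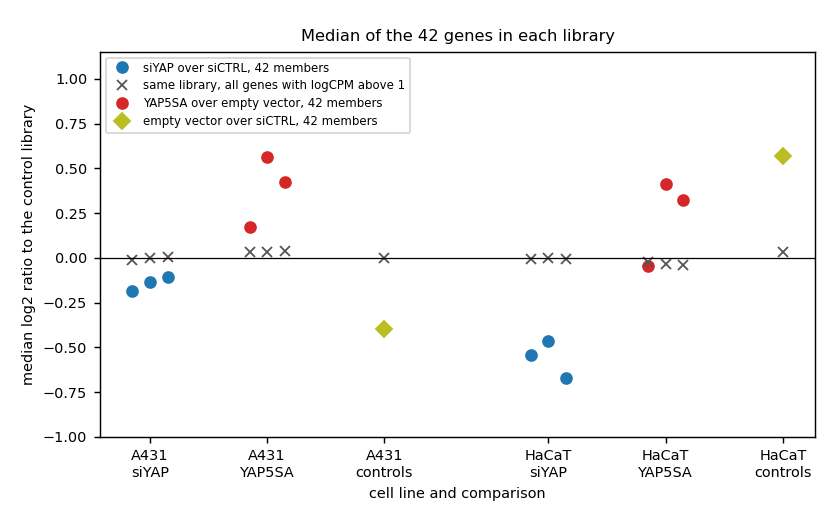
Median log2 ratio of the 42 genes to the control library of the same line (vertical axis) for each treated library and for the empty vector over siCTRL, by line and comparison (horizontal axis), with crosses for all genes with logCPM above 1 in the same library. The 3 HaCaT siYAP points lie between -0.466 and -0.672, and replicate 1 is the lowest YAP5SA point in both lines.

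Levels were also compared between the lines without regard to treatment. Averaged over the 4 treatments, 25 of the 42 were higher in A431 than in HaCaT, where 33.1% of all genes were called higher, and 3 were lower, where 27.5% were. The median was 0.41 on the log2 scale beside 0.06 for all genes, and 14 genes did not pass. The order of the lines was not the same in every treatment for all 25. With siYAP, NOLC1 had a mean of 378 CPM in A431 against 107 in HaCaT, and DDX21 803 against 191. With YAP5SA both were lower in A431, NOLC1 at 376 CPM against 543 and DDX21 at 630 against 784. NOL6, a small subunit factor, was 68.1 to 108 CPM in the 8 A431 libraries and 9.06 to 50.4 in HaCaT (2.07 ± 0.18, FDR 2.2e-07). BYSL, which is needed for 40S maturation, was 44.7 to 57.1 CPM against 6.67 to 22.3 (1.96 ± 0.11, FDR 2.9e-09). BOP1 was 25.9 to 58.6 CPM against 4.99 to 31.1 (1.86 ± 0.22, FDR 5.5e-06). The ranges of NOL6 and BYSL did not overlap between the lines, and those of BOP1 did.

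The 3 lower genes were UTP20, DDX10 and NCL. UTP20, the large scaffold of the small subunit processome, was 30.1 to 49.9 CPM in A431 and 51.6 to 190 in HaCaT, without overlap (-1.19 ± 0.16, FDR 2.3e-05). DDX10, a helicase, was 31.2 to 46.8 CPM against 31.8 to 85.5 (-0.48 ± 0.10, FDR 0.000573). NCL was 598 to 957 CPM against 425 to 1726 (-0.41 ± 0.14, FDR 0.0224). The ranges of DDX10 and NCL overlapped, and NCL did not pass over the treated libraries alone (-0.15, FDR 0.378).

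The rest of the pathway was represented by a list of 146 further ribosome biogenesis genes, all of them tested. Of these, 32 (21.9%) fell and 2 rose with siYAP over both lines, where 7.68% of all genes fell, with a median log2 fold change of -0.29. RRS1, which brings the 5S particle into the large subunit, was lowest at -1.07 ± 0.24 (FDR 0.0114), followed by the polymerase I subunit CD3EAP (-1.04, FDR 0.04) and RRP15 (-0.91, FDR 0.0138). The kinase RIOK3 (0.58) and EFTUD1 (0.35), which acts on late 60S particles, rose. In A431 alone 7 (4.79%) fell, beside 3.78% of all genes, and in HaCaT alone 22 (15.1%) fell, beside 3.3%, and 1 rose. With YAP5SA 14 (9.59%) rose in HaCaT, beside 6.99% of all genes, and 3 (2.05%) fell, beside 6.64%. None passed in A431, where 22 had an unadjusted p under 0.05 (15.1%, beside 5.64% of all genes). Over both lines only MYBBP1A, a nucleolar MYB-binding protein, rose (1.10 ± 0.26, FDR 0.0497), a share of 0.685% beside 1.38% of all genes.

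The products that the assembly factors handle, the cytosolic ribosomal proteins, were counted over 79 genes. With siYAP 1 fell over both lines (1.27%, beside 7.68% of all genes), with a median of -0.16. In HaCaT 76 of the 79 were below 0 while 1 passed (1.27%, beside 3.3%). With YAP5SA over both lines 1 rose (1.27%, beside 1.38%), with a median of -0.14. In HaCaT alone 4 rose (5.06%, beside 6.99%) and 3 fell (3.80%, beside 6.64%). In YAP5SA against siYAP in HaCaT 60 of the 79 (75.9%) were lower, beside 28.5% of all genes, and 1 was higher (1.27%, beside 31.5%). The median was -0.50, whereas the 42 assembly genes had a median of 1.38 in the same comparison. That comparison sets vector libraries against siRNA libraries. Against their own controls in HaCaT, the 79 genes had medians of -0.32 with siYAP and -0.18 with YAP5SA. The 42 genes had -0.56 and 0.22. The part of the difference between the controls was not tested. MYC, a known regulator of these genes, stood at 108 CPM in the HaCaT control and at 53.8, 81.9 and 61.2 CPM after knockdown, all below the control, and did not pass (-0.72 ± 0.20, FDR 0.0548). In A431 it was 176 CPM against 190, 224 and 231 CPM (0.29, FDR 0.463). With YAP5SA over both lines MYC had a log2 fold change of 0.51 (FDR 0.0864). Its part in the change of the 42 genes was not tested.

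Some values carry limits of counting. The table held fractional counts, which arise when a read is shared among genes, for 10 of the 42, among them NPM1, NOP14 and TSR1 in all 16 libraries. NPM1 has many processed pseudogenes, and PPAN shares reads with the readthrough gene PPAN-P2RY11, so their values are uncertain. The median SE of a log2 fold change over the 42 genes was 0.196 to 0.202 in the 4 comparisons within a line.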

How the data were processed

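The authors mapped paired reads, shortened to 75 bp, to the RefSeq models by RSEM and deposited 1 table of estimated counts per gene for 16 libraries, neither scaled nor filtered. The Methods and the submitters' processing notes give different RSEM versions, and the notes name hg19 and edgeR. Groups and numbering follow the labels. After rounding, edgeR 4.0.16 and DESeq2 1.42.0 (R 4.3.3) were used for tests, and pandas 2.3.3 with Python 3.11.15 for summaries.

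All genes averaging over 10 counts in the 16 libraries were scaled by TMM and fitted in 1 quasi-likelihood model of 8 groups, with p-values adjusted by Benjamini-Hochberg over all 14673 genes. The model had 8 residual degrees of freedom. Calls needed FDR below 0.05 with logCPM over 1, and the SE is the log2 fold change over the square root of F. In simulated data with siYAP changes, changes of 1 on the log2 scale were recovered in 29% of 100 changed genes in A431, 44% in HaCaT and 74% over both lines (14572 genes). Changes of 0.5 were recovered in 1%, 2% and 13% of another 100, so a missing call does not show a missing change.

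Same-numbered YAP5SA libraries of the 2 lines deviated together from their group means (r 0.28, 0.116 and 0.101 for replicates 1 to 3). On this ground the numbers were taken to pair them, although the labels state no pairing. A431 replicate 2 went further with HaCaT replicate 3 (r 0.14) than with HaCaT replicate 2. Same-numbered siYAP libraries of the 2 lines, at r 0.036, 0.117 and 0.178, were not paired in the block across YAP5SA libraries. For all other groups the same-number correlations were between -0.02 and 0.178. Replicates differed by more than sampling noise. Lengths for levels per kilobase came from GENCODE v29, and start site windows from RefSeq.

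The members, the lists and the tests were chosen with earlier results of these data known. Values in every library are given for up to 3 genes in each direction with the largest change among those called in siYAP or YAP5SA comparisons, for those called in a line difference and for up to 3 in each direction between lines. Other genes with values in every library (TCOF1 with siYAP, NCL with YAP5SA, LYAR in the controls) were chosen after their values were seen. Alternatives were DESeq2, RLE scaling, no count filter, over 10 counts in every library, FDR alone, each line alone, both controls together, each treated library left out, each arm against its own control and a replicate block over treated libraries. The block across YAP5SA libraries, the treated libraries without block and the line difference of YAP5SA against siYAP were added after seeing the data.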

Additional observations from a re-analysis of the deposited data

Results flagged for a closer look

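The difference between YAP5SA and siYAP libraries was lower in A431 than in HaCaT for 38 of the 42 genes in the edgeR test of the interaction between line and treatment, where 21.3% of all genes were called in this direction. The median of the interaction was -1.21 on the log2 scale, and LYAR had the largest, at -2.73 ± 0.19 (SE). The comparison sets vector libraries against siRNA libraries, and the empty vector over siCTRL ratio of the same genes had opposite signs in the 2 lines (median -0.398 in A431 and 0.569 in HaCaT, 1 library each). The part of that offset in the 38 calls was not tested. In the siYAP and YAP5SA comparisons against their own controls, the 8-group edgeR model called none of the 42 as different between the lines. With the replicate block 3 were called for YAP5SA (PPRC1, RRP12 and DDX18), without HaCaT YAP5SA replicate 1 PPRC1 was called, and GNL3 was called for siYAP when both controls were joined into 1 group.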

How the results depend on the processing

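Directions and counts of calls were recomputed under each alternative. Of 308 recomputed counts 268 stayed within 1.5 times the main count and 40 moved further. Many of the 268 were 0 beside a main count of 0, so the 268 say little about the other counts. The 14 genes lower with siYAP over both lines became as few as 7 and as many as 18. The 4 higher with YAP5SA in HaCaT became as few as 2 and as many as 15. Of the median log2 fold changes 146 moved by less than the spread between replicates, 5 by more, and 3 changed sign. The 5 were siYAP in HaCaT (-0.87), YAP5SA in HaCaT (0.56) and the siYAP line difference (0.95) with siCTRL and empty vector as 2 controls, and YAP5SA against siYAP in A431 (0.512) and HaCaT (0.909) with each arm against its own control. With 2 controls the median of YAP5SA in A431 was 0.17, beside 0.39. The 3 that changed sign belong to the YAP5SA difference between the lines (median 0.07), which was -0.00408 with more than 10 counts in every library, -0.385 with siCTRL and empty vector as 2 controls and -0.023 without HaCaT YAP5SA replicate 1 (range -0.023 to 0.179 when 1 treated library was left out).

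With DESeq2, siYAP called 2 genes lower in A431, the siYAP line difference called 2 higher in A431, YAP5SA called 8 higher in HaCaT and 8 over both lines, and 5 were lower in A431 than in HaCaT. With each line fitted alone, 3 were lower with siYAP in A431 (4.62%) and 2 higher with YAP5SA in HaCaT (2.84%). With siCTRL and empty vector as 2 controls, 30 were lower with siYAP in HaCaT (15.03%) and 8 higher with YAP5SA in HaCaT (4.77%). In the siYAP line difference 1 was then higher (0.0613%). More than 10 counts in every library gave 7 higher with YAP5SA in HaCaT (10.0%). No count filter gave 1 lower in YAP5SA against siYAP in A431 (8.63%). Each arm against its own control gave 0 lower (0.354%) and 0 higher (1.17%) in A431 and 15 higher in HaCaT (4.65%) for the same comparison. The cause of these changes was not tested.

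Leaving out 1 treated library gave 7 to 10 lower with siYAP over both lines (5.17% to 6.82% of all genes). It gave 2 to 15 higher with YAP5SA in HaCaT (4.25% to 9.08%) and 1 to 15 over both lines (0.225% to 4.89%). The YAP5SA line difference had 0 to 1 lower (0.00682% to 2.71%), and 3 to 5 were lower in A431 than in HaCaT (26.6% to 28.4%). In YAP5SA against siYAP in A431 the counts were 0 to 2 lower (9.51% to 16.1%) and 5 to 12 higher (15.2% to 21.6%). In that A431 comparison, the count lower was 0 without siYAP replicate 3 or YAP5SA replicate 3 and 1 without siYAP replicate 1 or 2, and the count higher was 5 without siYAP replicate 1 or YAP5SA replicate 2. Without HaCaT YAP5SA replicate 1, 5 were lower in A431 than in HaCaT, where 28.0% of all genes were.

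Each control was a single library without a partner, so the replicate block covered treated libraries and left the controls outside it. With the replicate block across the 6 YAP5SA libraries, 13 were higher with YAP5SA in HaCaT (9.89% of all genes) and 18 over both lines (5.06%). In the YAP5SA line difference 2 were lower (2.66%) and 1 higher (2.63%). With a replicate block over the treated libraries alone, NCL was -0.15 in A431 against HaCaT and no longer passed, as without the block. In YAP5SA against siYAP in A431 the same block made RRP12 lower (-0.53) and NOP10 higher (0.25), neither of which passed in these libraries without it. The labels state no pairing of siYAP with YAP5SA libraries. The block changed no other call of the 42 in YAP5SA against siYAP within a line or in A431 against HaCaT. No library had fewer than 18115624 assigned pairs.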
